A study of Homo sapiens with 6 samples.

Results

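Contactins and contactin-associated proteins are neuronal cell adhesion molecules, and 10 of their genes were described here among the 60651 genes with a value in each library. The 10 genes were 6 contactins (*CNTN1* to *CNTN6*) and 4 contactin-associated proteins (*CNTNAP1*, *CNTNAP2*, *CNTNAP4* and *CNTNAP5*), each found by its gene identifier. The family was chosen because *CNTNAP4* was already known to be higher in libraries labelled Tet, so its members were chosen by measured values of the Tet against EtOH contrast, and the values of all 10 genes in that contrast are given as a description. Where calls from the fit over the whole table are mentioned for members, they are counted and support nothing, and no p-value of that contrast is given for a member. P-values for members are given only where their levels are compared with each other over all 6 libraries. Other genes of the same adhesion system were listed apart and tested, with earlier results of these data known when the lists were chosen.

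Contactins carry immunoglobulin and fibronectin domains and are held in the outer membrane by a lipid (GPI) anchor, whereas contactin-associated proteins (Caspr proteins) span the membrane and belong to the neurexin superfamily. Members of both families pair on axons: CNTN1 with CNTNAP1 at the paranodal junction beside the node of Ranvier, and CNTN2 with CNTNAP2 at the juxtaparanode, where voltage-gated potassium channels are clustered. Their genes are active mainly in the nervous system, and neuroblastoma is a tumor of the developing sympathetic nervous system.

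Ribosome-depleted total RNA of a human neuroblastoma line was sequenced in 6 libraries, 3 titled EtOH (ethanol, the vehicle) and 3 titled Tet (tetracycline, given for 5 days). The labels did not name one model. Titles gave IMR575 and a tag named a knockdown with the values Control and Induction, whereas the protocol text described single clones of SK-N-SH cells with a tetracycline-inducible *MYCN* transgene under the TR repressor, kept in G418 and blasticidin, and the methods of the study described an SK-N-AS expression model and IMR-5/75 cells with an inducible *MYCN* shRNA. Titles alone set the groups here, the vehicle libraries are called EtOH and the others Tet by their label, and no direction of *MYCN* change is attached to either. *MYCN* itself had estimated counts of 5658, 7106.5 and 4715.5 in libraries labelled EtOH and of 5545.5, 7095.5 and 5779 in those labelled Tet. The log2 fold change of *MYCN* came to -0.07 (SE 0.23) with an adjusted p of 0.956 in edgeR. Neither an induction nor a knockdown was visible in these RNA values, which were counted without strand and with pairs divided among overlapping genes. The study reports that western blots showed MYCN induced by tetracycline in its expression model and knocked down in its shRNA cells. MYCN protein was not tested here. The labels do not say whether the libraries of a group came from separate cultures, while the methods of the study name independent biological replicates for in vitro work in general. Adjusted p-values measure the spread between these libraries, and in bulk RNA fewer cells of a type cannot be told apart from less RNA per cell.

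Libraries held between 27933378 and 40498065 counts, so that 3 counts correspond to between 0.0741 and 0.107 CPM, the count after every library is brought to one total. Levels below are CPM with TMM scaling, which corrects totals for composition. Over the genes tested, the first principal component took 44.7% of the variance and had EtOH replicate 2 and Tet replicate 2 at one end, and the second (25.7%) separated the groups. Mitochondrial genes took 4.12% and 5.86% of counts in those libraries and at least 6.82% in each of the others. Markers of noradrenergic neuroblastoma cells were present in part, 7 of 10 with means of 1 CPM or more (among them *HAND2*, *GATA3* and *ISL1*). Under 1 CPM were *GATA2* (mean 0.755 CPM), *DBH* (0.171 CPM) and *TH*, which had 1 count in all libraries together. The summed level of the 10 was 622 to 681 CPM in EtOH and 689 to 838 CPM in Tet. Markers of mesenchymal neuroblastoma cells, 8 of 8 with means of 1 CPM or more, summed to 295 to 523 CPM in EtOH and 266 to 386 CPM in Tet. Schwann cell markers summed to 2.78 to 4.52 CPM and 1.66 to 5.59 CPM with 1 of 6 genes, *S100B*, at 0, and oligodendrocyte markers to 1.06 to 1.15 CPM and 0.886 to 1.13 CPM with 3 of 4 genes, *MOG*, *OLIG1* and *OLIG2*, at 0. Fibroblast markers summed to 6.28 to 7.11 CPM in EtOH and 4.26 to 5.76 CPM in Tet, immune markers to 0.529 to 1.03 CPM and 0.478 to 0.592 CPM, and endothelial markers to at most 0.112 CPM in any library. The noradrenergic sums lie apart between the groups, as do the fibroblast sums, and their part in the differences below was not tested.

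Most members are among the longest genes in the genome. *CNTNAP2* (chr7:146116002-148420998, plus strand, GRCh38) spans 2.305 megabases, rank 2 of 60651 genes, and *CNTN5* (chr11:99020949-100358885, plus) spans 1.34 megabases, rank 32. *CNTN4* (chr3:2098813-3057959, plus) had rank 99 and *CNTNAP5* (chr2:124025287-124915287, plus) rank 123. *CNTN1* (chr12:40692439-41072415, plus), *CNTN6* (chr3:1092658-1404217, plus), *CNTNAP4* (chr16:76277278-76560757, plus) and *CNTN3* (chr3:74262568-74521140, minus) had ranks between 768 and 1445. *CNTN2* (chr1:205042937-205078289, plus) and *CNTNAP1* (chr17:42682531-42699993, plus) are compact, with spans of 35353 and 17463 bases, against a median of 3622 bases over all genes. *CNTN6* and *CNTN4* lie in order on chromosome 3, with *CNTN3* farther along the chromosome. The counted values used exon bases only, which made up 0.611% of the span of *CNTNAP5* and 50.1% of that of *CNTN2*.

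Promoter windows from RefSeq (GRCh38.p14, 250 bases before to 50 after a start site) were found for 10 of 10 members, 13 windows in all. They are shown for the 3 members with the largest log2 fold changes and for *CNTN3*, up to the start of the counted gene or of the RefSeq transcript, 5′ to 3′ on the gene's strand. Capitals mark the E-box that MYC family proteins bind with MAX, spelled CACGTG on both strands. A variant of it, spelled CATGTG, was searched on either strand and marked likewise.
CNTNAP4, chr16:76277151-76277277, plus strand: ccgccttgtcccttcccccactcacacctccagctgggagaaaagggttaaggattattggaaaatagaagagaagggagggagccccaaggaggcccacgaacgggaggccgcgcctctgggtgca
CNTN5, chr11:99020699-99020948, plus strand: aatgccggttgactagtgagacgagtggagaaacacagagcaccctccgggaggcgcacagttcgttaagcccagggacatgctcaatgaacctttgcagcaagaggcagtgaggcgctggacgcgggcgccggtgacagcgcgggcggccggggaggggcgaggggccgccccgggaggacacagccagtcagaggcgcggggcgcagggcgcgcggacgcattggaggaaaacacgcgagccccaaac
CNTNAP5, chr2:124025037-124025286, plus strand: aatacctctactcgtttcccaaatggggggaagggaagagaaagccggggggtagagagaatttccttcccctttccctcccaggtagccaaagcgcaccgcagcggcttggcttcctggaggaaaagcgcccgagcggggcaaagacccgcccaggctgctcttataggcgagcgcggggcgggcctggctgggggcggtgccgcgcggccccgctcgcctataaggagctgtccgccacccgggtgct
CNTN3, chr3:74614660-74614909, minus strand: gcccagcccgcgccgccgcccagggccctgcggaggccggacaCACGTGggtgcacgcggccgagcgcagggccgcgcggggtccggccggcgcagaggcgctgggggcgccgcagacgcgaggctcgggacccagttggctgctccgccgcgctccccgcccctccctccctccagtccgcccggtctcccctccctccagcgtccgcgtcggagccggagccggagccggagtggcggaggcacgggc

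The 3 windows of *CNTNAP4*, *CNTN5* and *CNTNAP5* hold no capitals. Of the 13 windows of members, 1, that of *CNTN3*, holds the E-box, and 1, that of *CNTN6*, holds the variant. Among 35116 promoter windows of this length the E-box was found in 7.26% and the variant in 11.1%, and the letters of one cannot overlap those of the other. The RefSeq start of *CNTN3* lies 93519 bases before the first base of the gene as counted here, so any exons between the starts were not counted. *CNTN1* has windows only at RefSeq starts 135745 and 215918 bases after its first counted base, so none covers its counted start. For *CNTN4*, 1 of the RefSeq starts lies 793407 bases after its first counted base. A GC content of 59.8% in the *CNTNAP4* sequence, 67.6% in that of *CNTN5*, 66.0% in that of *CNTNAP5* and 81.6% in that of *CNTN3* was computed from the letters shown. A match of letters is a description and not a binding site.

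Between the groups, *CNTNAP4* was about 5.45-fold higher in libraries labelled Tet, *CNTN5* 2.42-fold, *CNTN1* 1.52-fold and *CNTNAP2* 1.50-fold higher, and *CNTNAP5* went from near 0 to a low level. *CNTN2*, *CNTN3*, *CNTN4* and *CNTNAP1* had lower means in Tet with overlapping groups. Of the 10 members, 9 passed the filter on low counts and *CNTN6* did not. *CNTNAP5* passed it only through its Tet values, so any difference counted for it below could only be higher in Tet. The groups did not overlap, with Tet higher, in 5 of the 9 (*CNTN1*, *CNTN5*, *CNTNAP2*, *CNTNAP4* and *CNTNAP5*), against 9.2% of all 22443 genes tested, and with Tet lower in 0 of the 9, against 8.28%. At an adjusted p of 0.05, 1 member was called higher, *CNTNAP4*, where 0.147% of all genes tested were called higher (33 genes), and 0 were called lower, where 0.0891% were (20 genes). By the unadjusted p of edgeR at 0.05, 5 members were higher and 0 lower, beside 5.83% and 4.94% of all genes tested. DESeq2 called 2 members higher and 0 lower, beside 1.18% and 0.846% of its 23987 genes with an adjusted p. Since the contrast itself selected the family, nothing is read from these shares. The median log2 fold change of the 9 was 0.58 and that of all genes tested -0.0061.

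**Figure D1:**
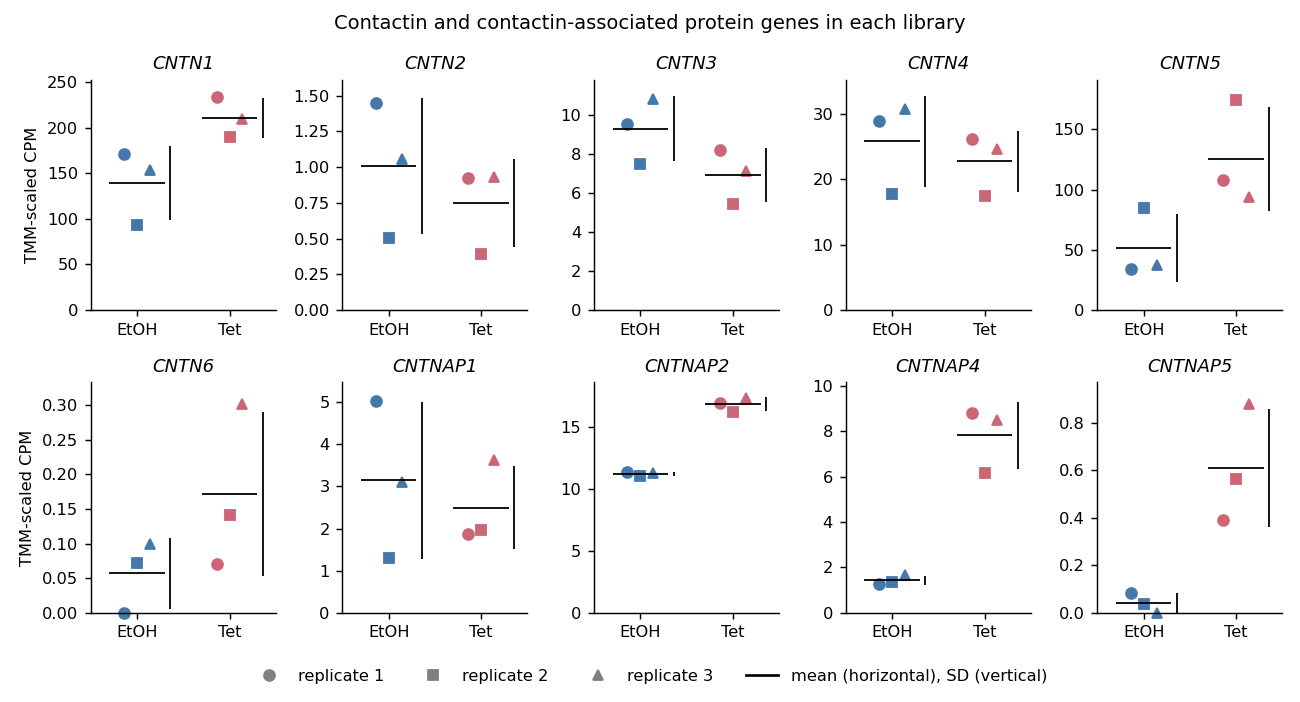
TMM-scaled CPM (y axis, each panel from 0 on its own scale) of the 10 members in libraries labelled EtOH and Tet, with marker shapes for replicate numbers, horizontal lines for means and vertical lines for SD (n = 3, cut at 0). The Tet points of *CNTN1*, *CNTN5*, *CNTNAP2*, *CNTNAP4* and *CNTNAP5* all lie above the EtOH points, and squares (replicate 2) are lowest in both groups for *CNTN1* to *CNTN4*.

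*CNTN1*, the contactin of the paranode and of early axon growth, was the most abundant member. It stood at 171, 93.1 and 153 CPM in EtOH and 233, 189 and 209 CPM in Tet. Every Tet library lay above every EtOH library, and the lowest library of each group was replicate 2. The log2 fold change was 0.60 (SE 0.23), and leaving out single libraries moved it between 0.38 and 0.76.

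*CNTN5*, also called NB-2, is a contactin of the auditory and other sensory pathways. It was measured at 34.3, 84.5 and 37.1 CPM in EtOH and at 108, 175 and 93.6 CPM in Tet. Replicate 2 was here the highest library of both groups, 2.37 times the mean of the other EtOH libraries and 1.73 times that of the other Tet libraries. The groups still did not overlap, although EtOH replicate 2 at 84.5 CPM came close to Tet replicate 3 at 93.6 CPM. The log2 fold change was 1.27 (SE 0.38) over all libraries, where the gene did not pass the threshold. Leaving out single libraries moved it between 0.96 (without Tet replicate 2) and 1.82 (without EtOH replicate 2). Of these fits, the gene passed only in the one without EtOH replicate 2. Without both libraries numbered 2, a setting chosen after seeing the data, it was 1.50 and passed.

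*CNTN4*, which binds amyloid precursor protein and the phosphatase PTPRG, had 28.9, 17.8 and 30.7 CPM in EtOH and 26.1, 17.5 and 24.7 CPM in Tet. *CNTN3*, another PTPRG ligand, had 9.54, 7.50 and 10.8 CPM in EtOH and 8.19, 5.44 and 7.12 CPM in Tet. *CNTN2*, the transient axonal glycoprotein of the juxtaparanode, had 1.45, 0.505 and 1.06 CPM in EtOH and 0.922, 0.395 and 0.931 CPM in Tet. In all 3 genes the groups overlapped and replicate 2 was the lowest library of either group. Their log2 fold changes were -0.18 (SE 0.25) for *CNTN4*, -0.43 (SE 0.24) for *CNTN3* and -0.43 (SE 0.52) for *CNTN2*. Without both libraries numbered 2 these were -0.23, -0.41 and -0.43.

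*CNTN6* (NB-3), a Notch ligand in glial development, was near the limit of detection. Its counts were 0, 2 and 3 in EtOH and 2, 5 and 12 in Tet, and it was not tested. Summed over libraries and scaled to their totals, 19 against 5 counts gave a ratio of 3.32 (95% exact conditional binomial interval 1.20 to 11.4). That interval covers counting error only, leaves out the spread between libraries and is no test of the contrast. The counts of the groups overlapped.

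*CNTNAP1*, the Caspr protein of the paranode, had 5.02, 1.30 and 3.11 CPM in EtOH and 1.88, 1.97 and 3.62 CPM in Tet. The EtOH libraries spread more widely than the groups differed, with a log2 fold change of -0.34 (SE 0.49) that turned to 0.16 without EtOH replicate 1. Of its exon bases, 13.1% are shared with other genes on the opposite strand, *CCR10* and the lncRNA ENSG00000267765. *CCR10*, a chemokine receptor, had 1.86 ± 0.170 CPM in EtOH and 1.24 ± 0.578 CPM in Tet (SD, n = 3), and ENSG00000267765 had 0.321 ± 0.109 and 0.220 ± 0.189 CPM (SD, n = 3). Counting ignored the strand, so reads of these genes and of *CNTNAP1* cannot be told apart over shared bases.

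*CNTNAP2*, the Caspr protein that gathers Kv1 channels at the juxtaparanode, had 11.4, 11.0 and 11.2 CPM in EtOH and 16.9, 16.2 and 17.3 CPM in Tet. Relative to their means, these were the tightest replicates of the family, with SDs of 0.174 and 0.573 CPM around means of 11.2 and 16.8 CPM. The log2 fold change was 0.58 (SE 0.17) and stayed between 0.56 and 0.61 when single libraries were left out. A pseudogene on its strand, *DUTP3*, shares 2.53% of its exon bases and held 10.5 counts in all libraries together.

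*CNTNAP5*, a Caspr protein with no shared exon bases, had counts of 3, 1 and 0 in EtOH and of 11, 20 and 35 in Tet. Both groups were low, from 0 to 0.0837 CPM in EtOH and from 0.390 to 0.881 CPM in Tet, and did not overlap. Summed over libraries, 66 counts stood against 4, a ratio of 14.4 after scaling to library totals (95% exact conditional binomial interval 5.37 to 54.5, counting error only). This interval too leaves out the spread between libraries and is no test of the contrast. The gene passed the filter on low counts only through its Tet values. The fitted log2 fold change was 3.76 (SE 0.79) and ranged from 3.22 to 4.85 when single libraries were left out.

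*CNTNAP4*, a Caspr protein of interneurons and dopaminergic cells at synapses, had 1.28, 1.37 and 1.65 CPM in EtOH (mean 1.44 ± 0.193, SD, n = 3). In Tet it had 8.83, 6.15 and 8.48 CPM (mean 7.82 ± 1.46, SD, n = 3). All Tet libraries lay well above all EtOH libraries, and the log2 fold change was 2.44 (SE 0.27), the value that had selected the family. It stayed between 2.34 and 2.59 when single libraries were left out, but with each of 5 of the 6 libraries left out (EtOH replicates 1 and 3 and Tet replicates 1, 2 and 3) the gene no longer passed the adjusted threshold. In those 5 fits at most 1 gene of the whole table passed in either direction. Without both libraries numbered 2 it was 2.57 and passed.

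**Figure D2:**
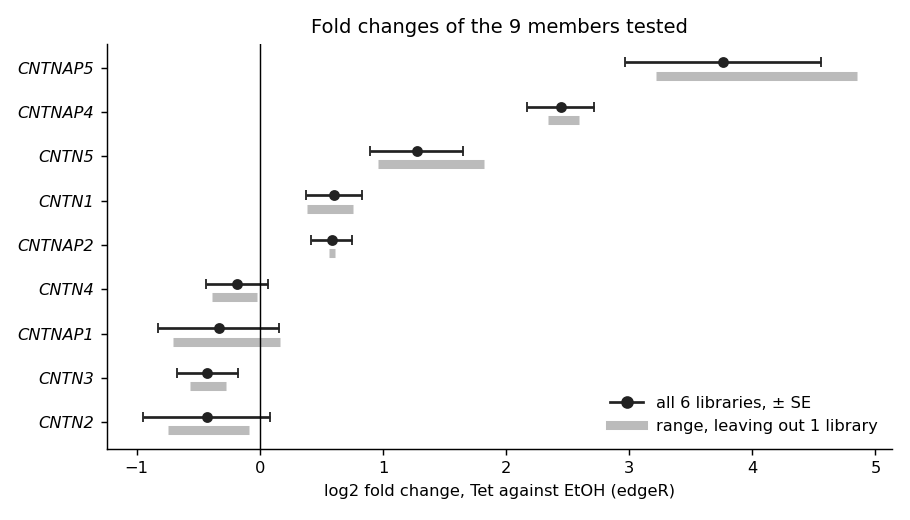
Log2 fold change of Tet against EtOH (x axis) for the 9 members tested, as points with SE from edgeR over all 6 libraries, and grey bars for the range when 1 library at a time was left out. *CNTNAP4* and *CNTNAP2* have short bars, from 2.34 to 2.59 and from 0.56 to 0.61, while that of *CNTNAP1* crosses 0.

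*CNTNAP4* is the member whose counts depend most on another gene. Of its 8001 exon bases, 4118 (51.5%) are also exon bases of other genes: 4108 belong to ENSG00000287694, a protein-coding gene on the same strand (chr16:76277288-76819624) that starts 10 bases later and runs past the end of *CNTNAP4*, and 26 to the antisense lncRNA ENSG00000286841, which had 0 counts in all libraries. A read pair over exons of both genes was divided evenly between them in the deposited values. ENSG00000287694 had estimated counts of 35, 14.5 and 26.5 in EtOH and 128, 82 and 167 in Tet. With a log2 fold change of 2.22 (SE 0.40) and an adjusted p of 0.0796 in edgeR it did not pass.

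The pairs that can belong to *CNTNAP4* alone were bounded from these values. Since a shared pair adds the same amount to both genes, the *CNTNAP4* value minus that of ENSG00000287694 is the least number of pairs that fell on *CNTNAP4* and not on the other gene. This difference was 11, 23 and 23 in EtOH and 121, 136 and 170 in Tet. As CPM without TMM scaling it was 0.322, 0.799 and 0.786 in EtOH and 4.33, 3.67 and 4.20 in Tet. Even the whole *CNTNAP4* value, which is the most that could fall on the gene alone, reached only 1.69 CPM in EtOH, under the lowest of the Tet bounds. So the groups did not overlap on the bases that *CNTNAP4* does not share, whichever way the shared pairs are assigned.

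**Figure D3:**
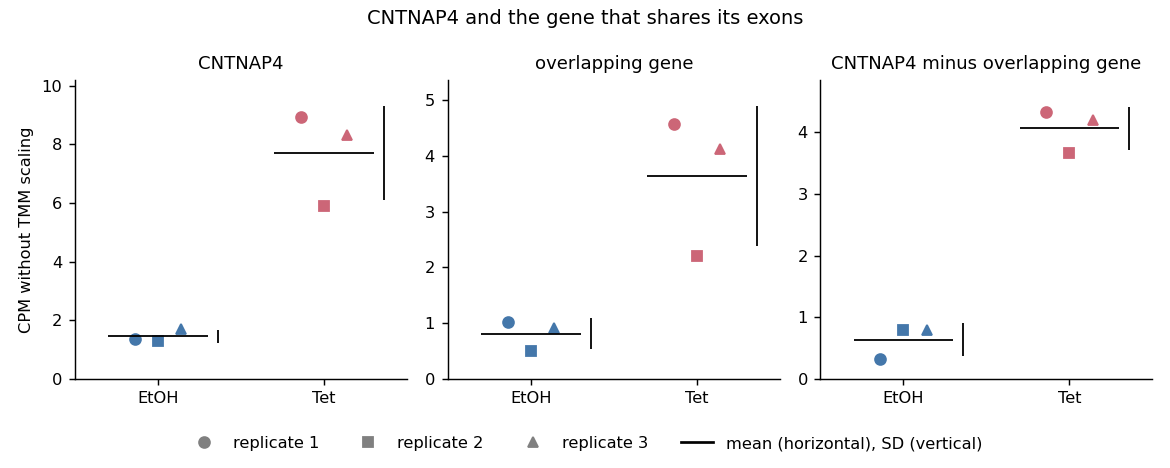
CPM without TMM scaling (y axis from 0) of *CNTNAP4*, of the overlapping gene ENSG00000287694, and of their difference, by group, with replicate numbers as marker shapes, means as horizontal lines and SD (n = 3) as vertical lines. The difference, a lower bound on pairs of *CNTNAP4* alone, lies at 3.67 or more in Tet and at 0.799 or less in EtOH.

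The genes whose course over the 6 libraries lay nearest to that of *CNTNAP4* were *ZMAT4*, a zinc finger gene, the gene ENSG00000229855, *SORBS2*, an adaptor of the actin cytoskeleton, and the genes ENSG00000279860 and ENSG00000273301. Likeness was the root mean square distance of centred log2 CPM among 10089 genes whose mean reached 5 CPM, and was 0.186, 0.226, 0.272, 0.310 and 0.321 in that order. *ZMAT4* had a mean of 28.3 CPM in Tet, 4.25 times that in EtOH, and *SORBS2* 9.44 CPM, 6.61 times that in EtOH. These genes share the libraries with *CNTNAP4* and were picked for their likeness, so no test was made.

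The long introns of the family hold other annotated genes. In all, 25 genes lay within the span of a member and shared no exon base with it, 14 on its strand and 11 on the other, and 10 of them passed the filter on low counts. Those named here were chosen after their values were seen. Within *CNTN5* and on its strand lie *RN7SKP53*, a 7SK pseudogene, and *RPA2P3*, a processed pseudogene. *RN7SKP53* had counts of 128, 191 and 98 in EtOH and 196, 515 and 243 in Tet, with replicate 2 the highest of both groups as for *CNTN5*. *RPA2P3* had 7, 3 and 6 counts in EtOH and 19, 35 and 18 in Tet, and passed the filter on low counts only through its Tet values. Their log2 fold changes of 1.01 (SE 0.42) and 2.03 (SE 0.53) stand beside 1.27 for *CNTN5* itself.

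Within *CNTNAP2*, 3 genes could be tested and all lay higher in every Tet library, as did 9.2% of all genes tested. The lncRNA gene and the Y RNA gene among them passed the filter on low counts only through their Tet values, so nothing is read from this count. The lncRNA gene ENSG00000230190 had 6, 1 and 9 counts in EtOH and 36, 35 and 55 in Tet (log2 fold change 2.82, SE 0.60). A Y RNA gene had 18, 16 and 5 counts in EtOH and 40, 48 and 34 in Tet (1.53, SE 0.52), and ENSG00000274127 had 38, 15 and 27 in EtOH and 41, 50 and 63 in Tet (0.83, SE 0.37). ENSG00000274127 lies on the strand opposite to *CNTNAP2* and the others on its strand, a difference that counting without strand does not resolve.

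Within *CNTN4*, whose own log2 fold change was -0.18, all 3 genes that could be tested had lower means in Tet with overlapping groups. These were *CNTN4-AS2* at -0.52 (SE 0.34), *HINT2P1* at -1.27 (SE 0.91) and ENSG00000286363 at -0.13 (SE 0.22). The antisense gene *CNTN4-AS1*, which shares 7.51% of the exon bases of *CNTN4*, had a log2 fold change of -0.37 (SE 0.44). Within *CNTN1* lie ENSG00000257680, a processed pseudogene, at 0.42 (SE 0.25), and the lncRNA gene ENSG00000274682 at 0.10 (SE 0.36). Over the 10 tested, 7 had positive and 3 negative log2 fold changes. Nothing is read from these signs. Some of the genes passed the filter on low counts only through their Tet values, and others differed by less than their SE. The contrast had also selected the family around them.

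**Figure D4:**
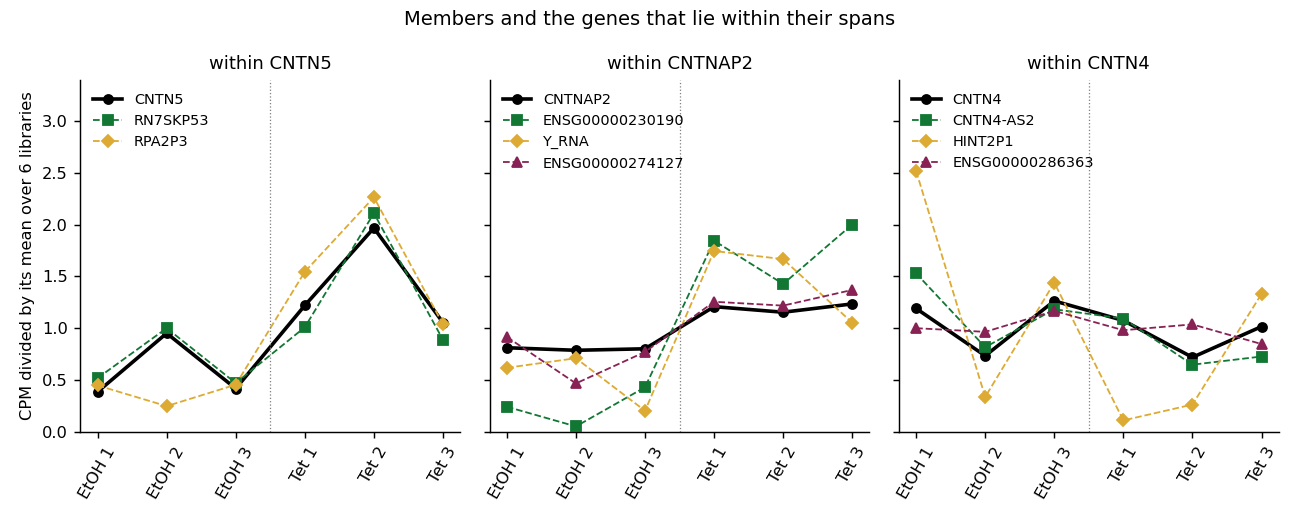
CPM divided by its mean over the 6 libraries (y axis) for *CNTN5*, *CNTNAP2* and *CNTN4* (black) and the tested genes within their spans (dashed), by library (x axis). *RN7SKP53* and *CNTN5* both peak in Tet replicate 2, the genes within *CNTNAP2* lie higher in the Tet libraries, and those within *CNTN4* do not.

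Levels were compared between members per exon length, as RPKM (TMM-scaled CPM per kilobase of exon). Means, SDs and tests ran over all 6 libraries, so they hold the difference between groups as well as the spread between replicates. They also include the Tet values of *CNTNAP4*, which had selected the family. In RPKM over the 6 libraries, *CNTN1* was highest with a mean of 23.3, before *CNTN5* (9.74), *CNTN4* (2.66), *CNTN3* (1.59), *CNTNAP2* (0.856), *CNTNAP4* (0.578), *CNTNAP1* (0.447), *CNTN2* (0.0495), *CNTNAP5* (0.0598) and *CNTN6* (0.0207), ordered by the mean of log2(RPKM + 0.01). The 4 leading genes were therefore all contactins, and the Caspr genes lay below them. The upper of 2 neighbours was higher in 6 of 6 libraries for *CNTN1* over *CNTN5*, *CNTN5* over *CNTN4*, *CNTN4* over *CNTN3*, *CNTN3* over *CNTNAP2* and *CNTNAP1* over *CNTN2*. For each of these 5 pairs the exact two-sided sign-flip permutation test gave p = 0.03125, the smallest that 6 libraries allow, and p = 0.0563 after adjustment over the 9 pairs, so no neighbouring pair passed the threshold. On the log2(RPKM + 0.01) scale *CNTN1* exceeded *CNTN5* by 1.43 ± 0.92 (SD, n = 6 libraries) and *CNTN4* exceeded *CNTN3* by 0.74 ± 0.19 (SD, n = 6 libraries).

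The remaining 4 pairs of neighbours did not keep their order. *CNTNAP2* was above *CNTNAP4* in RPKM in 4 of 6 libraries, since *CNTNAP4* lay at 0.160 to 0.205 RPKM in EtOH and 0.769 to 1.10 RPKM in Tet beside 0.674 to 0.694 and 0.988 to 1.06 RPKM for *CNTNAP2*. *CNTNAP4* was above *CNTNAP1* in 3 of 6 libraries, *CNTN2* above *CNTNAP5* in 3 of 6 and *CNTNAP5* above *CNTN6* in 4 of 6. Within each group the first 5 ranks were held by the same genes in the same order. *CNTNAP4* moved from rank 7 in EtOH to rank 6 in Tet, and *CNTNAP5* from rank 10 to rank 8.

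**Figure D5:**
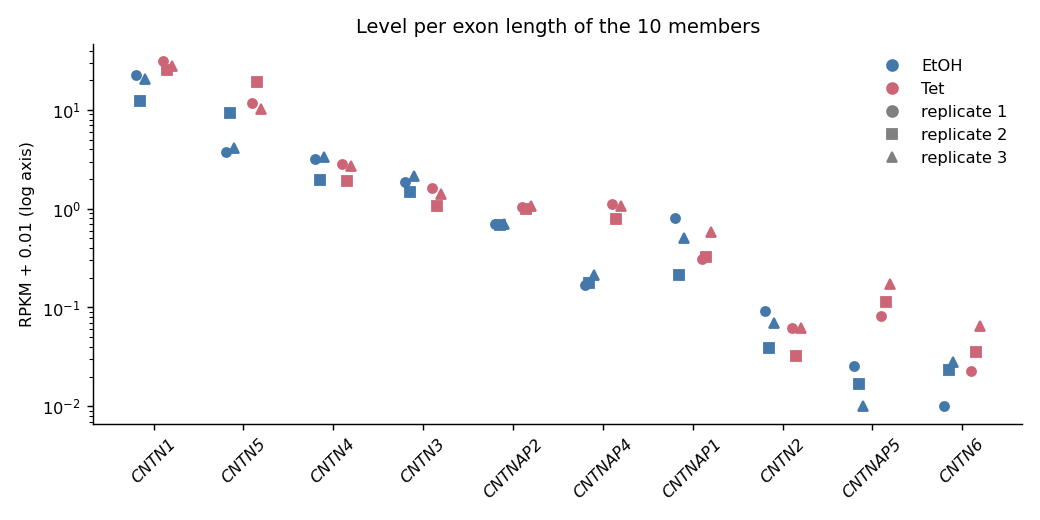
RPKM plus 0.01 on a log axis (y) for the 10 members (x, in order of their mean), by library, with colours for the group and marker shapes for the replicate number. *CNTN1* and *CNTN5* lie highest, with means of 23.3 and 9.74 RPKM, and *CNTN2*, *CNTNAP5* and *CNTN6* lie under 0.17 RPKM in every library.

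The pairs of the axonal complexes were not matched in level. In RPKM, *CNTN1* exceeded its paranodal partner *CNTNAP1* in every library, with ranges of 12.4 to 31.1 and 0.203 to 0.794 RPKM. The juxtaparanodal pair had the opposite balance, with *CNTN2* at 0.0223 to 0.0819 RPKM and *CNTNAP2* at 0.674 to 1.06 RPKM.

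Binding partners, receptors, scaffold proteins and relatives were read from lists of 54 genes, of which 45 passed the filter on low counts. In edgeR, 1 was called higher and 0 lower at an adjusted p of 0.05, beside 0.147% and 0.0891% of all genes tested. At an unadjusted p of 0.05, 14 were higher and 3 lower, beside 5.83% and 4.94% of all genes tested, and these shares are also the background of each list below. DESeq2 called 5 higher and 0 lower, beside 1.18% and 0.846% of its genes. The groups did not overlap with Tet higher in 16 and with Tet lower in 3 of the 45, beside 9.2% and 8.28% of all genes tested. The median log2 fold change of the 45 was 0.29. Because the lists were chosen with earlier results of these data known, nothing is read from these shares.

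Among 6 L1-type and NCAM-type adhesion molecules, all tested, *NCAM1* was the gene that passed. *NCAM1*, the neural cell adhesion molecule, had 91.5, 95.1 and 90.7 CPM in EtOH and 216, 221 and 209 CPM in Tet. The replicates were close, and it rose by 1.22 on the log2 scale (SE 0.13), with an adjusted p of 0.0205 in edgeR, higher in 3 of 3 Tet libraries. No listed partner passed when any library other than EtOH replicate 2 was left out. *L1CAM*, which promotes axon growth, had 9.04, 4.47 and 8.40 CPM in EtOH and 13.2, 12.7 and 23.2 CPM in Tet and did not pass (1.16, SE 0.34, adjusted p = 0.249 by edgeR). *CHL1*, its close homolog, had a log2 fold change of -0.74 (SE 0.28) with overlapping groups, and *NCAM2* one of 0.29 (SE 0.21). *NFASC*, the glial and axonal partner of the CNTN1 and CNTNAP1 complex, had means of 20.0 ± 10.3 and 21.7 ± 8.52 CPM (SD, n = 3), and was named for that role after its values were seen.

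Receptors and ligands of contactins counted 14 genes, of which 12 were tested and 0 passed in edgeR. At an unadjusted p of 0.05, 4 were higher and 1 lower, beside 5.83% and 4.94% of all genes tested. *PTPRZ1*, the phosphatase that binds CNTN1, and the sodium channel subunit *SCN2B* had 0 counts in all libraries, which allows at most 3 counts, or 0.107 CPM, in the shallowest. The genes named here had the largest differences among those averaging 1 CPM or more. *TNC*, an extracellular matrix protein that CNTN1 binds, stood at 1.42 ± 0.260 CPM in EtOH and 2.93 ± 0.710 CPM in Tet (SD, n = 3). It is also one of the mesenchymal markers. *APLP1*, of the amyloid precursor family, had 4.61 ± 1.13 and 7.83 ± 1.07 CPM, and *ATP1B1*, the sodium pump subunit, 148 ± 7.37 and 221 ± 33.4 CPM (SD, n = 3). In these 3 genes the groups did not overlap, with log2 fold changes of 1.04 (SE 0.32), 0.76 (SE 0.26) and 0.58 (SE 0.16). *TNR*, a second tenascin, varied far more between replicates, at 14.6, 1.91 and 14.6 CPM in EtOH and 19.0, 5.95 and 27.2 CPM in Tet, with replicate 2 lowest in both groups.

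The axonal scaffold and clustered channels were 25 genes, of which 20 were tested and 0 passed in edgeR. At an unadjusted p of 0.05, 6 were higher and 0 lower, beside 5.83% and 4.94% of all genes tested. *ANK3*, the ankyrin G of axon initial segments and nodes, had 92.9, 49.1 and 81.4 CPM in EtOH and 185, 167 and 190 CPM in Tet. Its groups lay far apart, by 1.28 on the log2 scale (SE 0.23), and the adjusted p of 0.0812 in edgeR missed the threshold. *CADM2*, an axonal adhesion molecule, had 12.5, 14.9 and 11.7 CPM in EtOH and 28.2, 35.1 and 21.6 CPM in Tet, with a log2 fold change of 1.12 (SE 0.22), and its adjusted p in edgeR was 0.0966. *CADM4* had one of 1.15 (SE 0.37) and *LGI2*, a secreted ligand of ADAM22 and ADAM23, one of -0.76 (SE 0.40). The Kv1 channel gene *KCNA1*, whose protein CNTNAP2 gathers in myelinated axons, had 0 counts in all libraries, as did *LGI3* and *CADM3*. Of the other Kv1 channel genes listed, *KCNA2* had 2 counts in all libraries together. *KCNA4* was present, at 4.66 ± 1.58 CPM in EtOH and 4.08 ± 0.712 CPM in Tet (SD, n = 3).

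Relatives of the neurexin superfamily and neuroligins were 9 genes, of which 7 were tested and 0 passed in edgeR. At an unadjusted p of 0.05, 2 were higher and 1 lower, beside 5.83% and 4.94% of all genes tested. *NLGN4X* had a log2 fold change of 0.81 (SE 0.27), with EtOH replicate 2 at 50.6 CPM just under Tet replicate 3 at 51.1 CPM. *NLGN1* had 34.2 ± 1.63 CPM in EtOH and 27.2 ± 1.26 CPM in Tet (SD, n = 3), lower in all Tet libraries, with a log2 fold change of -0.33 (SE 0.15). *CNTNAP3*, a Caspr gene with the near-identical copy *CNTNAP3B* and pseudogenes, had 28.4 ± 3.87 and 36.3 ± 3.50 CPM (SD, n = 3). Its value is uncertain, because reads that align equally well to several copies were left out of these counts.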

How the data were processed

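Total RNA libraries of a neuroblastoma cell line were analysed, 3 labelled EtOH and 3 labelled Tet. Each library had 1 table of estimated counts by gene, deposited without scaling. Per the file headers, the authors used featureCounts 1.6.4 on uniquely aligned pairs and exons, divided pairs among overlapping genes and did not use strand. The submitters' processing notes name STAR 2.7.1a, featureCounts 1.5.1 and GRCh38, and the study's methods describe other counting options. The headers were followed here. Gene symbols were matched for 99.7% of 60651 identifiers. The 92 spike-ins had 0 counts and were left out.

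Estimated counts, of which 12.3% to 14.7% of genes per library were not whole, were rounded. After filterByExpr and TMM scaling, the groups were compared by the quasi-likelihood test of edgeR 4.0.16 (R 4.3.3) with Benjamini-Hochberg adjustment over 22443 genes and a threshold of 0.05. The study used DESeq2 (here 1.42.0), an alternative. SE is the log2 fold change divided by the square root of F. The steps were tested on simulated counts. Members, gene lists and tests were chosen with earlier results of these data known. Named besides the 10 members were genes that share exon bases with a member and have at least 10 counts, listed partners that passed, up to 4 genes per partner list with the largest absolute log2 fold change at a mean of at least 1 CPM, and the 5 genes nearest to *CNTNAP4*. Other genes were named after their values were seen, and some genes of the lists are not reported here. Alternatives were other scalings and filters, DESeq2, limma voom (limma 3.58.1), single libraries left out and a replicate block. Leaving out both libraries numbered 2 was chosen after seeing the data. Circular RNAs were not analysed here.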

Additional observations from a re-analysis of the deposited data

How the results depend on the processing

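Of the comparisons of a member's log2 fold change under an alternative, 122 left both the sign and the call as they were, 5 lost the call (*CNTNAP4*), 7 gained it and 1 changed sign, *CNTNAP1* at 0.16 without EtOH replicate 1 (range -0.71 to 0.16 with 1 library left out). The cause was not tested. Genes called higher over the whole table numbered 33 and genes called lower 20. They were 185 and 117 with no filter and 282 and 203 with DESeq2, and with the size factors of DESeq2 in edgeR 13 were lower. With a replicate block, 421 were higher and 254 lower, and without both libraries numbered 2 487 and 387. Leaving out 1 library gave 0 to 361 higher and 0 to 331 lower, the top of both ranges without EtOH replicate 2. Members called higher numbered 1. There were 3 with no filter (with *CNTN5* and *CNTNAP5*), 2 with DESeq2, 3 with the replicate block (with *CNTN1* and *CNTN5*), 2 without both libraries numbered 2 and 0 to 2 with 1 library left out. Partner genes called higher numbered 1. There were 4 with no filter, 5 with DESeq2, 8 with the replicate block, 7 without both libraries numbered 2 and 0 to 4 with 1 library left out. Partner genes called lower numbered 0, and 1 without EtOH replicate 2 (range 0 to 1) or without both libraries numbered 2.

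No label pairs libraries of the same number. The correlations of their deviations from the group means were 0.0603, 0.510 and 0.219 for numbers 1, 2 and 3, and since that of number 1 was low they were not treated as pairs. The libraries numbered 2 did deviate together. Counts of *CNTNAP5* and *CNTN6* were too low for more than their ratios.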
